A study of Mus musculus with 12 samples.

Results

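MAX is a small basic helix-loop-helix leucine zipper protein that sits at the centre of a network of transcription factors. It pairs with MYC or MYCN to form dimers that activate transcription, and with MXD1, MXI1, MXD3, MXD4, MNT or MGA to form dimers that repress it, and these dimers compete for the same short DNA element, the E-box. MLX is a related partner that pairs with some MXD proteins, with MNT and with the glucose sensing factors MondoA and ChREBP. The balance of activating and repressing dimers is known for its part in cell growth, ribosome production and the exit of cells from rest, and the oocyte of a primordial follicle rests until it starts to grow.

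The 10 genes described here (*Max*, *Myc*, *Mycn*, *Mxd1*, *Mxd3*, *Mxd4*, *Mxi1*, *Mnt*, *Mga* and *Mlx*) are 10 of 55401 in the count table and were all found in it. The network was selected on *Max*, because its level was lower in every dorsomorphin library than in every control library of oocytes from primordial follicles. The *Max* values of those libraries are therefore given as a description, with no test, and so is each comparison of *Max* that uses them. The other 9 genes follow from their place in the network. Just inside the rule lay the lowest control library, with 259 CPM of *Max* (CPM being counts scaled to a common library total), and the highest dorsomorphin library, with 69.6 CPM.

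The study asked how dorsomorphin (DM), an inhibitor of the energy sensing kinase AMPK, acts on ovarian follicles. RNA was sequenced from oocytes of C57Bl/6j x CBA/J mice, in 4 groups of 3 libraries: primordial follicles after sham, primordial follicles after DM, primary follicles after sham and primary follicles after DM. By the study's methods, ovaries of pups about a week old were cultured for several days with DM or with its solvent DMSO, which is the group the labels call sham, and oocytes were then cut by laser from stained paraffin sections, chosen by their shape, and pooled. The study's figure legends describe the 3 samples of a group as biologically independent pools. The labels carry the words in vivo for these libraries and do not tie a library to an animal or a culture. P-values therefore measure the spread between libraries, which may be technical. In such pools, fewer cells of a type and less RNA per cell cannot be told apart.

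Libraries held from 14034586 to 42639326 counts on genes, and from 4206 to 10687 genes stood above 3 counts, which is what a count of 0 still allows and which covers counting error only. That number of genes was 7085 to 10687 in primordial sham, 5216 to 7616 in primordial DM, 4206 to 7839 in primary sham and 4670 to 5314 in primary DM libraries. The labelled cell type was checked against marker genes. Summed over 10 oocyte markers, levels ran from 1.93 to 1623 CPM, with the lowest value in primary sham replicate 3. The 12 granulosa cell markers summed to 280 to 11211 CPM and the 10 stroma markers to 2389 to 13189 CPM, and in 12 of 12 libraries each of these sums was above that of the oocyte markers. The sums were not scaled by gene length, and single genes carried some of them. In primary DM replicate 2 the granulosa cell gene *Foxl2* had 11123 CPM and the oocyte gene *Ddx4* 1113 CPM. *Foxl2* had 7291 CPM in primary sham replicate 3. The 9 markers of growing oocytes found in the table summed to 15.6 to 131 CPM in primordial sham, 0.143 to 11.6 CPM in primordial DM, 9.51 to 218 CPM in primary sham and 0.680 to 78.8 CPM in primary DM libraries. Primary DM replicates 1 and 2, at 0.800 and 0.680 CPM, thus lay below each primordial sham library in markers of growth. The granulosa cell genes *Fshr* and *Cyp19a1* were at 0 in every library, and so were *Hba-a1* and *Hbb-bs* of red blood cells. The part of these other cell types and of the number of genes detected in the results below was not tested.

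The E-box with the letters CACGTG, which reads the same on both strands, is the element that the dimers of this network bind, and it occurs before some of the network's own genes. RefSeq windows (GRCm38, also called mm10) from 250 bases before to 50 bases after a gene's start were at hand for 9 of the 10 genes, and not for *Myc*. Of these 9 genes, 4 held the motif, beside 8.09% of all 27025 genes with a window. The 4 sites are shown because they are where the network's dimers could meet its own genes. Each stretch is written 5′ to 3′ on the strand of the gene, with the E-box in capitals. The starts are those of RefSeq. By the GENCODE limits of *Max* given below, which end at 76962201, its stretch lies wholly before the gene.
Max (chr12:76962234-76962263, minus strand, E-box beginning 3 bases before the start and running across it): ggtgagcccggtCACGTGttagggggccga
Mxd4 (chr5:34187904-34187949, minus strand, E-box beginning 219 bases before the start): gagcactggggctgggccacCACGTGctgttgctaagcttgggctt
Mnt (chr11:74830781-74830826, plus strand, E-box beginning 123 bases before the start): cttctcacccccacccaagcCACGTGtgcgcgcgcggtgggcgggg
Mlx (chr11:101087230-101087275, plus strand, E-box beginning 40 bases before the start): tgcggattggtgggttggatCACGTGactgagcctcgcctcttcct
A match of letters is a description and not a bound site. The windows of *Mycn*, *Mxd1*, *Mxd3*, *Mxi1* and *Mga* did not hold these letters.

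*Max* and *Mga* were the 2 network genes found above 3 counts in all 12 libraries, and every other member was at 3 counts or fewer in at least 5 libraries. *Mnt* passed 3 counts in 7 libraries, *Mxi1* and *Mxd4* in 6 each, *Mycn* in 5, *Myc* in 3, *Mxd1* and *Mlx* in 2 each and *Mxd3* in 1. A library held between 2 and 9 of the 10 genes above 3 counts, with 9, 4 and 7 in primordial sham, 7, 4 and 3 in primordial DM, 5, 6 and 3 in primary sham and 2, 2 and 4 in primary DM. The member with the most counts was *Max* in 6 libraries, *Mga* in 4, *Mycn* in primordial DM replicate 1 and *Mxd3* in primary DM replicate 3.

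**Figure D1:**
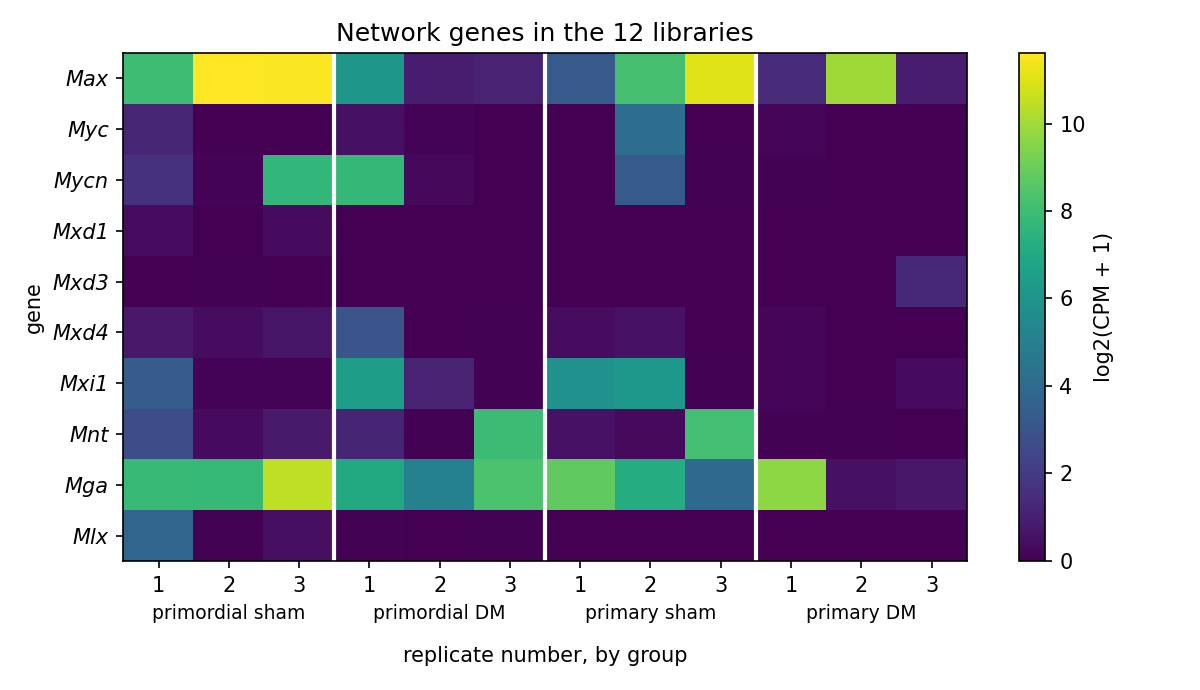
Levels of the 10 network genes as log2(CPM + 1) in the 12 libraries, with genes in rows and libraries in columns by group and replicate number. *Max* and *Mga* are the only rows with counts above 3 in all columns. The other rows are bright in at most a few libraries, such as *Mnt* in primordial DM 3 (245 CPM) and primary sham 3 (286 CPM).

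*Max*, the shared partner of the network, lies on chromosome 12 (76937269 to 76962201, minus strand, GRCm38). In oocytes of primordial follicles it stood at 259, 3131 and 3004 CPM in the sham libraries and at 69.6, 0.889 and 1.19 CPM in the DM libraries. These are the values by which the network was chosen, and 2 of the 3 DM libraries held only 31 and 25 counts of the gene. The mean was 2131 ± 1623 CPM (SD, n = 3) after sham and 23.9 ± 39.6 CPM (SD, n = 3) after DM. The log2 fold change was -6.43 with a standard error (SE) of 1.67, and its sign is fixed by the choice of the gene. In the same libraries the oocyte markers summed to 18.8 to 1149 CPM after sham and 16.8 to 1064 CPM after DM. The granulosa cell markers summed to 971 to 3355 CPM after sham and 280 to 2182 CPM after DM, so both sums overlapped. Sums of the growing oocyte markers did not overlap, at 15.6 to 131 CPM after sham and 0.143 to 11.6 CPM after DM. The part of this difference in the level of *Max* was not tested. A gap of the kind seen for *Max*, with each DM library below each sham library, occurred in 11.0% of the 6699 genes tested in primordial follicles, and the opposite gap in 2.06%.

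In oocytes of primary follicles, which the choice of the network did not use, *Max* stood at 8.54, 289 and 2127 CPM in the sham libraries and at 1.6, 1007 and 0.912 CPM in the DM libraries. Each group held a library in single digits and a library of 1007 CPM or more, and they overlapped. The log2 fold change was -1.25 (SE 2.77), and the adjusted p was 0.821 (edgeR quasi-likelihood test, Benjamini-Hochberg), so no difference was detected. An interval of 1 SE on either side holds changes in both directions. Without primary DM replicate 2 the value was -10.35, and without primary sham replicate 3, the library lowest in oocyte markers, it was 4.03, so its sign rested on single libraries.

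Set in order, which for the primordial groups describes the values used in the choice, the mean level of *Max* on library totals was highest in primordial sham, followed by primary sham (808 ± 1151 CPM, SD, n = 3), primary DM (337 ± 581 CPM, SD, n = 3) and primordial DM. With TMM-normalized CPM the order changed, with means of 2617 in primary sham, 1340 in primordial sham, 1298 in primary DM and 16.2 in primordial DM. In the first order, the libraries of each group overlapped in CPM those of the next group, so that neighbours did not differ beyond their spread. Per kilobase of exon, the scale on which genes can be compared with each other, *Max* had the highest mean of the 10 genes in primordial sham (592 CPM per kb), in primary sham (225 CPM per kb) and in primary DM (93.5 CPM per kb). In primordial DM it stood at 6.64 CPM per kb, after *Mycn* (21.1), *Mnt* (17.7) and *Mga* (10.6 CPM per kb). The places of *Mycn* and *Mnt* rested on single libraries, since their means in primordial DM fell from 69.7 to 0.0860 CPM without replicate 1 and from 82.1 to 0.670 CPM without replicate 3. In the same group the mean of *Max* fell from 23.9 to 1.04 CPM without replicate 1. The first place of *Max* in primary DM rested on replicate 2. Without it the mean of *Max* fell from 337 to 1.26 CPM, and that of *Mga* was 403 CPM.

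**Figure D2:**
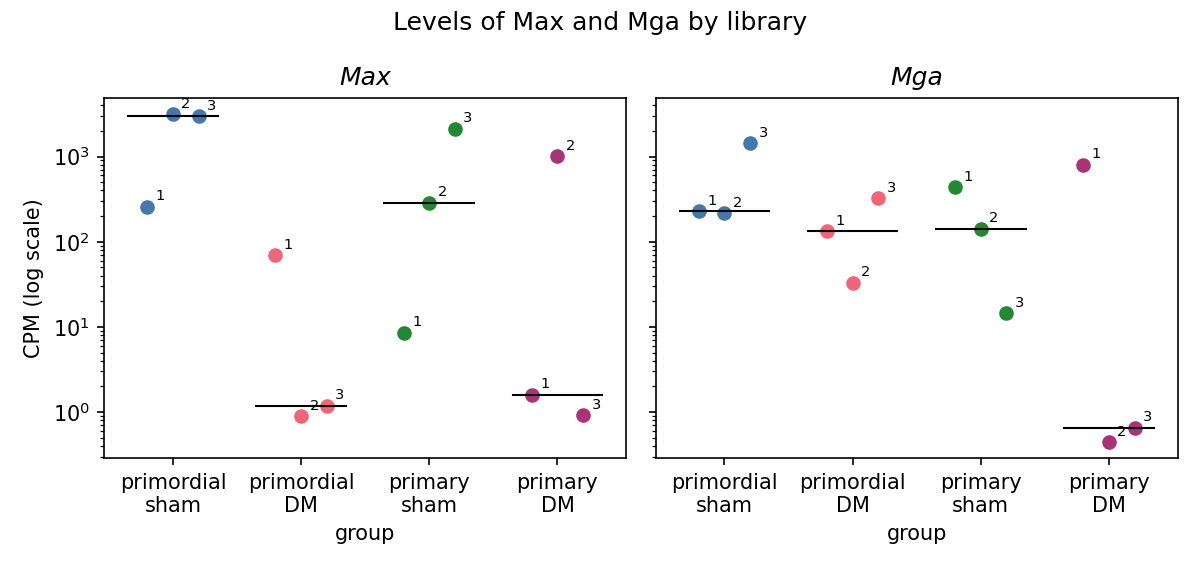
CPM of *Max* (left) and *Mga* (right) in each library on a log axis, by group, with replicate numbers beside the points and the group median as a line. The 3 primordial DM points of *Max* (0.889 to 69.6 CPM) lie below the 3 primordial sham points (259 to 3131 CPM), while in the primary groups, and for *Mga* in every group, the points overlap between sham and DM.

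The activating partners were found in few libraries. *Myc*, the founding member of the family and a driver of growth and ribosome production, had 51, 0 and 0 counts in primordial sham and 17, 3 and 0 in primordial DM. In primary follicles it had 0, 241 and 0 counts after sham and 3, 0 and 0 after DM. Thus 89.6% of its summed CPM came from primary sham replicate 2, and *Myc* passed the filter on low counts in neither comparison of DM with sham.

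*Mycn*, the paralogue that is prominent in embryonic tissues, was abundant in single libraries of both primordial groups, with 81, 3 and 3154 counts after sham and 7985, 6 and 0 after DM. The highest sham and the highest DM library were level, at 208.6 and 208.9 CPM. The log2 fold change was 0.13 (SE 2.94, adjusted p = 0.995, edgeR), and its sign turned with the scaling, at -0.26 with DESeq2 size factors and -0.03 with library size alone. In primary follicles *Mycn* had 1, 122 and 2 counts after sham and 1, 1 and 0 after DM, below the filter. Leaving out primordial DM replicate 1 gave -9.11 and leaving out primordial sham replicate 3 gave 6.71 for the primordial comparison.

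Among the repressing partners, *Mxd1* and *Mxd3* were near the limit of detection. *Mxd1*, linked with terminal differentiation, had 11, 0 and 4 counts in primordial sham, 1, 0 and 0 in primordial DM, and 0 in all 6 libraries of primary follicles, which allows up to 3 counts in each. *Mxd3*, linked with the S phase of dividing cells, had 2 counts in primordial sham replicate 2, 55 in primary DM replicate 3 and 0 in the other 10 libraries. Its exons share 105 bases with *Prelid1* on the opposite strand. The strand setting of the counting is not given in the sources used here, so that reads in the shared bases cannot be assigned, and primary DM replicate 3 held 15 counts of *Prelid1*.

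*Mxd4* and *Mxi1*, both repressors that recruit the SIN3 complex, had higher means in primordial DM than in primordial sham, each through 1 library. *Mxd4* had 27, 12 and 9 counts after sham and 281, 1 and 1 after DM. *Mxi1* had 359, 3 and 1 counts after sham and 3432, 43 and 1 after DM. For *Mxd4* the log2 fold change was 2.56 (SE 2.35, adjusted p = 0.807, edgeR), and for *Mxi1* it was 4.16 (SE 3.26, adjusted p = 0.759). Without primordial DM replicate 1 these values became -3.02 and -1.11. Neither difference was thus larger than the spread between libraries, and both signs depended on that library.

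In primary follicles *Mxi1* was seen at 1974, 1017 and 2 counts after sham and at 3, 0 and 10 counts after DM. The high sham libraries reached 57.9 and 72.5 CPM, yet the groups overlapped through primary sham replicate 3, and the gene did not pass the filter in this comparison. *Mxd4* had 10, 7 and 0 counts after sham and 3, 0 and 0 after DM.

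*Mnt*, the most widely expressed of the repressors and a direct antagonist of MYC, showed its levels in 2 libraries above all. In primordial follicles it had 216, 10 and 12 counts after sham and 49, 2 and 5157 after DM, and in primary follicles 16, 3 and 8894 after sham and 1, 2 and 0 after DM. Primary sham replicate 3 held 53.0% of its summed CPM. In primordial follicles the log2 fold change was 6.41 (SE 3.76, adjusted p = 0.661, edgeR), and without primordial DM replicate 3 it was -1.02. In primary follicles each DM library was below each sham library, at no more than 2 counts against as few as 3, and the gene did not pass the filter. In that comparison 11.8% of the 4181 genes tested had each DM library below each sham library and 1.27% had the opposite gap.

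*Mga* is the largest member, a protein with a T-box as well as a MAX binding domain, and a part of a Polycomb complex that keeps germ cell genes silent in other cells. It stood at 229, 216 and 1436 CPM in primordial sham and at 134, 33.0 and 323 CPM in primordial DM. The log2 fold change was -1.42 (SE 1.98, adjusted p = 0.886, edgeR). In primary follicles it stood at 435, 143 and 14.6 CPM after sham and at 805, 0.446 and 0.656 CPM after DM (log2 fold change 1.40, SE 3.20, adjusted p = 0.829). The groups overlapped in both stages. Without primary DM replicate 1 the primary value was -6.41, and without primordial sham replicate 3 the primordial value was 0.19. Where *Mga* was high *Max* was not always so, since primary DM replicate 1 had 1.6 CPM of *Max* and primary DM replicate 2 had 1007 CPM of *Max* with 0.446 CPM of *Mga*.

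*Mlx* had 483, 2 and 6 counts in primordial sham, 2, 0 and 1 in primordial DM, and 0 in all 6 libraries of primary follicles. Each primordial DM library was below each primordial sham library in CPM, but primordial sham replicate 2 and primordial DM replicate 1 had 2 counts each, under the limit that a count of 0 allows. With 95.9% of its summed CPM in primordial sham replicate 1, the gene did not pass the filter. Its exons share 385 bases with *Psmc3ip* on the opposite strand, which had at most 11 counts in a library.

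In the comparison of DM with sham in primordial follicles, 6 of the 10 genes passed the filter. Leaving *Max* aside, edgeR called none of the 5 tested, and none had an unadjusted p under 0.05. The background was 0.0149% of 6699 genes called, with 491 genes at an unadjusted p under 0.05. In primary follicles *Max* and *Mga* passed, neither was called or had an unadjusted p under 0.05, and the background was 0% of 4181 genes, with 508 at an unadjusted p under 0.05. The typical precision was low: on the log2 scale the median SE of the genes tested was 2.84 for primordial and 3.14 for primary follicles. DESeq2 called 650 and 698 genes in these comparisons, but gave a p for only 1 of the 5 and 1 of the 2 network genes, *Mga* in both, and did not call it.

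**Figure D3:**
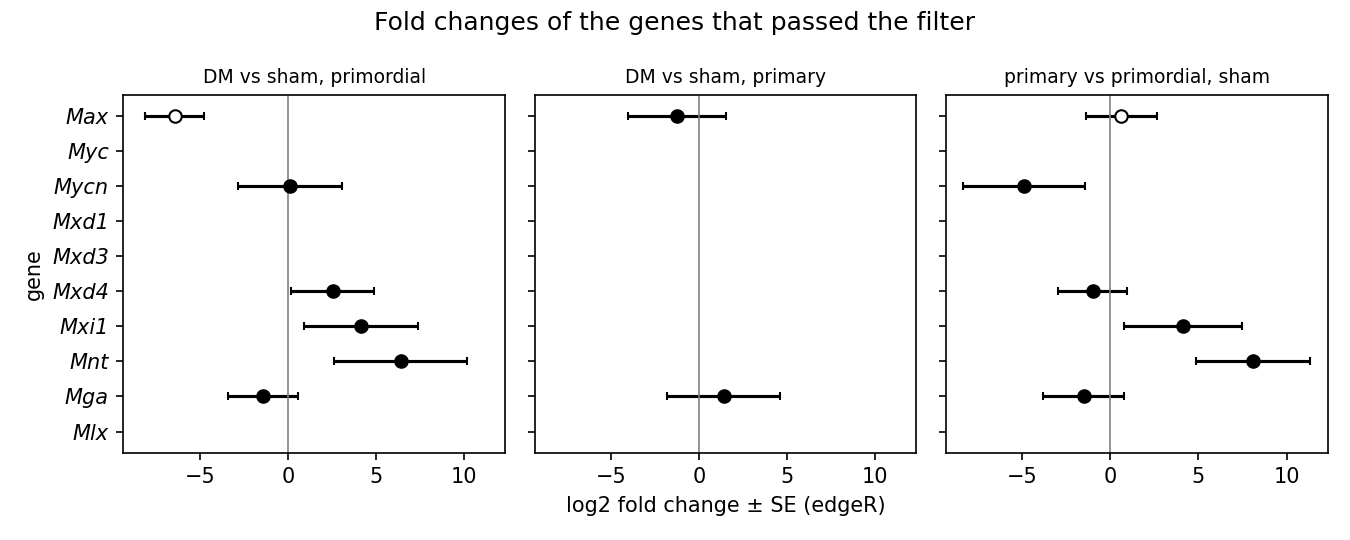
Log2 fold change ± SE from edgeR for the network genes that passed the filter, in DM against sham in primordial follicles (left), DM against sham in primary follicles (middle) and primary against primordial follicles after sham (right). Filled points were tested and none had an adjusted p under 0.05, and open points are *Max* where its primordial libraries had been used to choose the network.

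The design also allows the follicle stages to be compared, to see how the network stood in growing against dormant follicles, with the growing oocyte markers of the libraries as given above. After sham, *Mnt* was the member with the lowest unadjusted p, 0.0122, at a log2 fold change of 8.11 in primary against primordial follicles (SE 3.23, adjusted p = 0.742, edgeR). This rested on primary sham replicate 3, without which it was -2.23. *Mycn* stood at -4.90 (SE 3.45, adjusted p = 0.819) and *Mxi1* at 4.14 (SE 3.35, adjusted p = 0.842). *Mxd4* and *Mga* were closer to 0, at -1.0 (SE 1.95) and -1.52 (SE 2.30), with adjusted p of 0.976 and 0.956. *Mycn* became 1.58 without primordial sham replicate 3, whereas *Mxi1* remained between 3.58 and 8.77 as libraries were left out. Of the 5 genes tested edgeR called none, beside 0% of 6726 genes with 433 at an unadjusted p under 0.05, and DESeq2 called none of the 3 for which it gave a p, beside 287 genes of the table. All 5 overlapped between the stages, beside 8.46% of genes with each primary library lower and 1.23% with each primary library higher. *Max* had a log2 fold change of 0.62 (SE 2.01), given without a test.

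After DM, *Mga* was the one member tested, at a log2 fold change of 1.27 in primary against primordial follicles (SE 2.97, adjusted p = 0.832, edgeR), and without primary DM replicate 1 it was -6.67. The background was 0% of 4331 genes, with 746 at an unadjusted p under 0.05 and 934 called by DESeq2. *Max* stood at 6.03 (SE 3.46) with no test, through primary DM replicate 2.

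Whether DM acted differently in the 2 stages was asked by the interaction of stage and DM over all 12 libraries. *Mnt* gave -18.55 on the log2 scale (SE 5.45, unadjusted p = 0.000674, adjusted p = 0.0974, edgeR). The fitted difference of DM and sham was thus more negative in primary than in primordial follicles, but it missed the threshold. Without primary sham replicate 3 the value was -7.72, and with the replicate number as a block it was -2.57. *Mxi1* gave -10.38 (SE 4.87, unadjusted p = 0.0331, adjusted p = 0.231), and was called by DESeq2 at an adjusted p of 0.0375. The adjusted p of *Mxi1* ran from 0.0375 to 0.784 over the alternatives tried, and its value ran from -14.87 to -5.17 as libraries were left out, with the same sign throughout. *Myc* (-4.77, SE 4.0), *Mycn* (-4.77, SE 4.27), *Mxd4* (-3.65, SE 3.88) and *Mga* (3.10, SE 3.65) had adjusted p from 0.502 to 0.648. All of these but *Mga* had not passed the filter in DM against sham of primary follicles, and passed here with the primordial libraries included. The primary part of their values rested on few counts in primary DM, as 1, 2 and 0 for *Mnt* and 3, 0 and 10 for *Mxi1*. No difference between the stages is concluded from them. EdgeR called 0% of the 8500 genes, with 1605 at an unadjusted p under 0.05, and DESeq2 called 8.04%, while among the 6 network genes tested it gave a p for *Mxi1* alone.

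**Figure D4:**
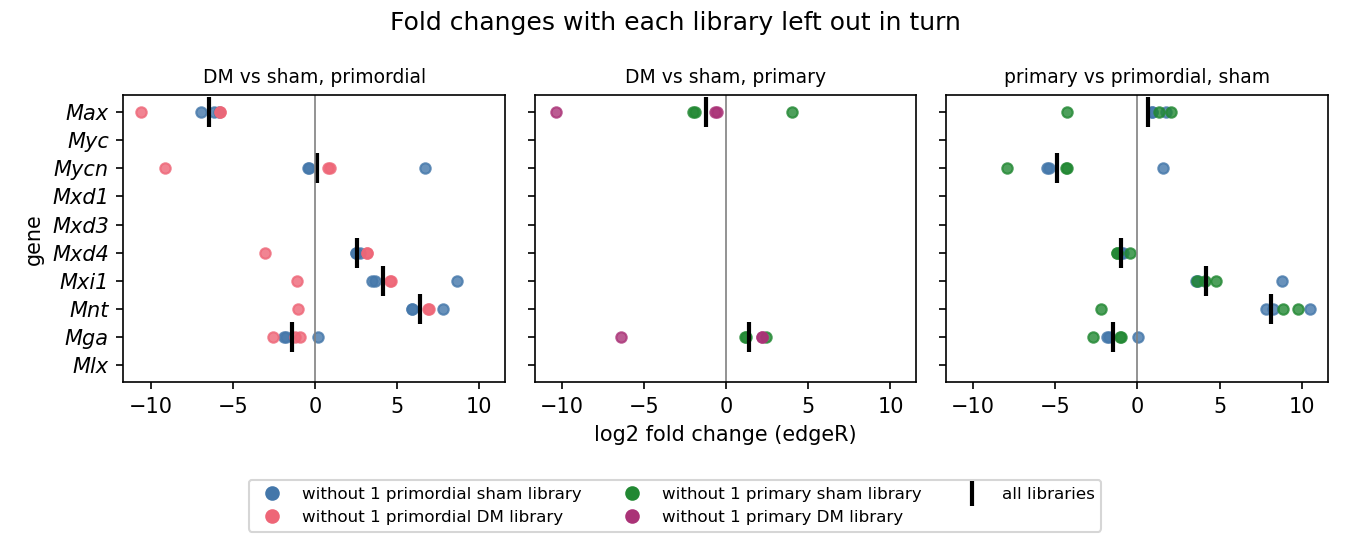
Log2 fold changes from edgeR with all libraries (black bars) and after removing 1 library at a time (points, coloured by the group of the library left out), for the same 3 comparisons. *Mycn*, *Mxd4*, *Mxi1*, *Mnt* and *Mga* in primordial follicles and *Max* and *Mga* in primary follicles each cross 0, and the sign of *Max* in primordial follicles is fixed by how the gene was chosen.

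How far a gene's counts came from 1 library differed among the members. The highest library held 31.6% of the summed CPM of *Max*, 38.1% of *Mga*, 38.8% of *Mxi1*, 48.7% of *Mycn*, 50.0% of *Mxd1*, 53.0% of *Mnt*, 73.8% of *Mxd4*, 89.6% of *Myc*, 95.9% of *Mlx* and 96.7% of *Mxd3*. Over the 8500 genes that passed the filter in the 12 libraries, the median was 52.3%, with quartiles of 38.0% and 71.4%. *Mxd4*, *Myc*, *Mlx* and *Mxd3* lay above the upper quartile, though *Mlx*, *Mxd3* and *Mxd1* had not passed that filter and are not like the set. *Max* lay below the lower quartile, but its share includes the primordial libraries by which it was chosen.

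The genes with a pattern most like that of *Max*, by the mean absolute difference of log2(CPM + 1) over the 12 libraries, were *Cul1* (1.51), a scaffold of ubiquitin ligases, *Gatm* (1.84), an enzyme of creatine synthesis, and *Capzb* (1.99), which caps actin filaments. The median difference from *Max* over the 4761 genes compared was 4.73. *Cul1* had 14008, 6005 and 6310 counts in primordial sham and 6035, 36 and 27 in primordial DM, and in primary follicles 10180, 11405 and 16655 after sham and 20, 39565 and 34 after DM. *Capzb* had 14829, 35127 and 16 counts in primary DM, where *Max* had 44, 42942 and 32. The likeness includes the primordial libraries by which *Max* was chosen.

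Other genes of the pathway were read from lists of textbook partners and targets, which were chosen with results of these data known. None had an adjusted p under 0.05 in edgeR in either comparison of DM with sham, and the lists are described by their counts. Of 34 textbook MYC targets (ribosome production, nucleotide synthesis, glycolysis, cell cycle), 30 passed the filter in primordial follicles, 17 with a positive and 13 with a negative log2 fold change, and 1 had an unadjusted p under 0.05. Their median was 0.52, beside 0.13 over all genes tested. With DESeq2 size factors it was 1.0, beside 0.56 over all genes, and with library size alone it was -0.15, beside -0.43. In primary follicles 21 passed, 11 positive and 10 negative, and 2 had an unadjusted p under 0.05. Their median was 1.05, beside 0.31 over all genes. With DESeq2 size factors it was 3.36, beside 2.04 over all genes, and with library size alone it was -0.47, beside -0.96. The medians of the lists below stand beside these same values over all genes. The nucleolar protein gene *Ncl* was higher in each primordial DM than each sham library, with 10370, 21240 and 10737 counts after sham and 55478, 27895 and 17691 after DM (log2 fold change 1.35, SE 1.47, adjusted p = 0.849). The ribosome assembly gene *Ppan* had 53, 848 and 15 counts after sham and 3, 11 and 1 after DM in the same follicles (-5.61, SE 3.14, adjusted p = 0.658). The replication gene *Mcm4* had 46302, 1633 and 195077 counts in primary sham and 42, 51 and 33 in primary DM (-11.53, SE 3.91, adjusted p = 0.395). Of these targets 1 was higher and 2 were lower without overlap in primordial follicles, and 0 and 6 in primary follicles. Over all genes tested, the shares higher and lower without overlap were the 2.06% and 11.0% given above for primordial follicles and 1.27% and 11.8% for primary follicles.

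The corepressor genes through which MXD and MNT proteins silence their targets, the SIN3 and NCOR complexes, numbered 13. In primordial follicles 12 passed the filter, 10 with a positive and 2 with a negative value, at a median of 1.46, and in primary follicles 11 passed, 4 positive and 7 negative, at a median of -3.49. With DESeq2 size factors the medians were 2.39 and -1.35, and with library size alone 0.80 and -4.70, and 0 and 2 of these genes had an unadjusted p under 0.05. *Sin3a*, the scaffold of the complex, had 11518, 7439 and 282 counts in primordial sham and 21881, 31962 and 24530 in primordial DM, each DM library being higher (log2 fold change 3.07, SE 1.76, adjusted p = 0.658, edgeR). The histone binding subunit gene *Rbbp4* had 2761, 1914 and 73239 counts in primary sham and 615, 53 and 52 in primary DM (-7.90, SE 3.78, adjusted p = 0.396). In primary DM *Sin3a* itself was at 28, 20 and 32 counts against 4696, 6174 and 269 in primary sham.

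For the 14 partners of MGA in its Polycomb complex, 11 passed in primordial follicles (7 positive, 4 negative, median 1.94) and 5 in primary follicles (2 positive, 3 negative, median -5.63). In primordial follicles the median was 2.42 with DESeq2 size factors and 1.24 with library size alone. In primary follicles it was -2.82 and -5.70 with these scalings, beside 2.04 and -0.96 over all genes. *Pcgf6*, the subunit that defines this complex, had 299, 1095 and 414 counts in primordial sham and 0, 1 and 0 in primordial DM (log2 fold change -10.34, SE 4.17, unadjusted p = 0.0131, adjusted p = 0.605, edgeR), and it was the 1 gene of the list with an unadjusted p under 0.05 there. *Tfdp2*, a partner of E2F factors, had 4492, 5271 and 30 counts in primary sham and 24, 33 and 31 in primary DM (-5.63, SE 3.47, adjusted p = 0.416). Its counts overlapped through the sham library with 30, and the groups were apart only after scaling to library totals. *Pcgf6* had 2, 9 and 0 counts in primary sham and 0, 0 and 127 in primary DM, and these groups overlapped.

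Of the 16 coactivators and partners of MYC, 13 passed in primordial follicles (9 positive, 4 negative, median 0.98) and 8 in primary follicles (4 positive, 4 negative, median -0.24). With DESeq2 size factors these medians were 1.23 and 0.45, and with library size alone 0.38 and -0.46. *Actl6a*, a subunit of chromatin remodelling complexes, had 140, 44 and 22 counts in primordial sham and 0, 5 and 0 in primordial DM (-4.60, SE 2.43, adjusted p = 0.658). *Paf1*, of the elongation complex of that name, had 433, 5746 and 208092 counts in primary sham and 33, 38 and 34 in primary DM (-11.85, SE 3.94, adjusted p = 0.395). In both genes, 3 DM libraries with few counts stood against 3 sham libraries whose counts differed widely.

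Of 13 genes for the turnover of MYC protein, 10 passed in primordial follicles (5 positive, 5 negative, median -0.17) and 5 in primary follicles (2 positive, 3 negative, median -2.35). With DESeq2 size factors these medians were 0.41 and -2.67, and with library size alone -0.77 and -2.26. *Ppp2r5a*, a regulatory subunit of the phosphatase PP2A, had 747, 8 and 1 counts in primordial sham and 4601, 11513 and 8113 in primordial DM (6.63, SE 3.16, adjusted p = 0.658). *Usp28*, a deubiquitinase that stabilises MYC, had 948, 4442 and 130 counts in primordial sham and 1, 3 and 20 in primordial DM (-6.70, SE 3.79, adjusted p = 0.658). *Stub1*, a ubiquitin ligase, had 95, 3820 and 362 counts in primary sham and 1, 79 and 4 in primary DM (-4.87, SE 3.29, adjusted p = 0.453). Of the 4 remaining genes of the MYC family and the MondoA and ChREBP branch, *Mlxip*, which encodes MondoA, was the 1 that passed in each comparison. Its log2 fold changes were 0.63 in primordial and 5.65 in primary follicles, and its libraries overlapped between DM and sham in both.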

How the data were processed

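RNA was sequenced from 12 libraries of laser-captured mouse oocytes, 3 in each of 4 groups given by the labels. The values are read counts per gene, which the authors deposited without normalization. Reads had been trimmed with trim_galore, checked with FastQC, mapped to mm10 (with TopHat2 by the methods, while the submitters' processing notes name STAR) and counted with featureCounts. The library kit is described both as TruSeq RNA Access and as Smart-seq II, after amplification of the cDNA, which makes reads copies rather than independent molecules. Of 55401 gene identifiers 55141 matched a symbol. Gene positions and exon lengths are from GENCODE M21 (GRCm38, the same build), and the starts of the windows before genes are from RefSeq.

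CPM were computed on library totals. Each comparison was made in R 4.3.3 with edgeR 4.0.16 on the libraries of the groups compared (filterByExpr, TMM, quasi-likelihood test, prior count 0.125), with Benjamini-Hochberg adjustment over all genes tested and a threshold of 0.05. The SE is the absolute log2 fold change divided by the square root of F. No fold is given for a gene in a comparison where it was below the filter, and the interaction has its own filter over all 12 libraries. The alternatives were DESeq2 1.42.0, its size factors, library size alone, other filters, a prior count of 2, the replicate number as a block, 1 fit of all libraries and each library left out in turn. The scripts were tested on simulated data. Within groups, no pair of libraries agreed within sampling noise (smallest chi-square per degree of freedom 1146).

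The members and lists were chosen with earlier results of these data known. Named besides the members are, from each list, the gene with the most positive and the most negative change among those without overlap between DM and sham, and the 3 genes nearest to *Max* among those with at least 10 counts in 6 or more libraries. *Sin3a*, *Pcgf6* and *Cul1* values in further groups, and *Mlxip*, were added after their values were seen.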

Additional observations from a re-analysis of the deposited data

How the results depend on the processing

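The number of genes called in DM against sham in primordial follicles was 1 with edgeR and 650 with DESeq2. It was 0 with DESeq2 size factors, with library size alone, without a filter, with at least 10 counts in every library, with the replicate block and with all 12 libraries in 1 fit, and from 0 to 3 with each library left out. DESeq2 called 698 genes in primary follicles, 287 and 934 between stages after sham and after DM, and 683 for the interaction, where edgeR called 0. Between stages after sham, edgeR called 1 gene with library size alone and 4 with at least 10 counts in every library, and after DM from 0 to 4 with each library left out. The cause was not tested. Of the members tested DESeq2 called 1, *Mxi1* in the interaction, and it gave no p for most others, which are not counted as lost.

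Signs turned for *Mycn* in primordial follicles, to -0.26 with DESeq2, -0.26 with its size factors and -0.03 with library size alone. With the replicate block they turned for *Mxd4* in primordial follicles (-1.31), *Mga* in primary follicles (-3.88), *Mnt* between stages after sham (-0.12) and *Mga* between stages after DM (-3.68). *Max* between stages after sham, not tested, went from 0.62 to -2.74 with the block, 3.28 with DESeq2 size factors and -1.43 with library size alone. The interaction of *Mnt* went from -18.55 to -2.57 with the block (adjusted p = 0.915, edgeR). The labels do not say whether the replicate numbers pair the libraries. Deviations of same-numbered libraries correlated at -0.0377 to 0.0314, which cannot decide it, since the wide spread between libraries could hide a shared part. No member was called with the block.

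With each library left out, the log2 fold change in primordial follicles ran from -9.11 to 6.71 for *Mycn*, -3.02 to 3.19 for *Mxd4*, -1.11 to 8.62 for *Mxi1*, -1.02 to 7.81 for *Mnt* and -2.54 to 0.19 for *Mga*. In primary follicles it ran from -10.35 to 4.03 for *Max* and -6.41 to 2.44 for *Mga*. Between stages after sham it ran from -7.95 to 1.58 for *Mycn*, -2.23 to 10.51 for *Mnt* and -2.69 to 0.04 for *Mga*, and after DM from -6.67 to 2.55 for *Mga*. For the interaction it ran from -10.17 to 4.37 for *Myc*, -11.44 to 4.32 for *Mycn*, -8.11 to 1.61 for *Mxd4* and -4.96 to 3.97 for *Mga*. The alternatives for the stages after DM and for the interaction were chosen after seeing the data. *Max* in primordial follicles, whose sign the choice of the gene fixes, was -9.53 with the replicate block and from -10.60 to -5.76 with each library left out.

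A scaling moved the median of all genes from 0.13 to 0.56 (DESeq2 size factors) or -0.43 (library size alone) in primordial follicles, and from 0.31 to 2.04 or -0.96 in primary follicles. *Mxd1*, *Mxd3* and *Mlx* stood above 3 counts in 2, 1 and 2 libraries and were left untested by the filter. *Mlx* had 483 counts in primordial sham replicate 1 (37847705 counts in all) and 2 in replicate 2 (37082838). These 2 libraries had 10687 and 7463 genes above 3 counts, and the part of depth was not tested.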
